A study of Mus musculus with 96 samples.

Results

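The proteasome is the large protease that destroys proteins tagged with ubiquitin, and its genes were followed here in primary mouse embryonic fibroblasts re-entering the cell cycle. The members were the rows of the deposited gene table whose symbol begins with Psm, a letter from a to g and a digit, which gave 48 of 15895 genes. Of these, 31 encode subunits of the constitutive 26S proteasome and 3 the immunoproteasome subunits (Psmb8, Psmb9 and Psmb10). A further 7 encode assembly chaperones, 4 activators, 1 the core-binding regulator Psmf1 and 1 a tissue-specific core subunit, Psma8. Psmc3ip matched the letters but is a meiotic recombination factor and no subunit, so it was left out of every count of subunits. The fibroblasts were of the CF-1 strain and were taken at embryonic day 13. They were held in 0.5% fetal calf serum for 36 h, which stops most cells in a resting state, and then given 20% serum. Poly-adenylated RNA was sequenced 1 h before serum, at 0 h and at successive times in 2 time courses, called Cycle 1 and Cycle 2, and the labels name no transgene, deletion or drug. Cycle 1 has 64 libraries up to 38 h, mostly every 0.5 h up to 25 h, of which 63 were analysed here and the one at 12.5 h was not, and Cycle 2 has 32 libraries up to 27 h. The libraries taken before and at 0 h are called starved, and each time was sampled once in a Cycle.

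A 26S proteasome has a barrel-shaped core and caps at its ends. The core is a stack of rings, with alpha subunits outside, which form the gate, and beta subunits inside, of which Psmb5, Psmb6 and Psmb7 cut peptide bonds. The cap has a base, whose ring of ATPases unfolds the substrate and opens the gate, and a lid, whose subunit Psmd14 removes the ubiquitin chain. Under interferon Psmb8, Psmb9 and Psmb10 take the places of Psmb5, Psmb6 and Psmb7 and change which peptides are made for antigen presentation. Dividing cells need the proteasome for the ordered loss of cyclins and cell cycle inhibitors. When proteasome activity falls short, the transcription factor encoded by Nfe2l1 is known to raise the genes of all subunits together through a short promoter element.

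The promoter windows of 40 members, from 250 bases before to 50 bases after the start site, were found among 32851 windows of RefSeq (GRCm38.p6), 25 of them for subunits of the 26S proteasome. They were searched on both strands for the letters of 5 motifs. GGAAGTG ends in the TG that opens TGACNNNGC, so a match of each can overlap. The element TGACNNNGC, the form of the antioxidant response element that Nfe2l1 binds, was present in 4 of the 25 windows and in 12.4% of all windows. The 4 are 16.0% of the subunit windows. They are shown as examples of the element, and its part in the changes of the subunits was not tested. The element is in capitals and the bases are those of the coding strand, so that an element on the other strand is shown as its reverse complement.
Psmb5 (chr14:54618023-54618052, minus strand): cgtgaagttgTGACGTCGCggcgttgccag
Psmb6 (chr11:70525327-70525356, plus strand): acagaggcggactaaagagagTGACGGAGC
Psmc6 (chr14:45329587-45329616, plus strand): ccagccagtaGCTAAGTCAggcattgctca
Psmd12 (chr11:107479278-107479307, plus strand): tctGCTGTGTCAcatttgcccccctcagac
Counted from the start site, the first capital letter lay at -47 in Psmb5, -9 in Psmb6, -227 in Psmc6 and -247 in Psmd12. CCAAT, the box bound by NF-Y, was found in 10 of the 25 windows and in 37.4% of all windows. GGAAGTG, bound by ETS factors, was found in 6 of 25 and in 11.0% of all windows. CACGTG, the E-box of Myc, was found in 1 of 25 (Psma4) and in 7.15% of all windows. The interferon-stimulated response element was found in 2 of 25 (Psmb3 and Psmd4), in 0 of the 3 immunoproteasome windows and in 3.44% of all windows.

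A pair of longer stretches is shown because they precede the members with the strongest rise and the strongest fall. The first is the 250 bases before the start of Psmd8, which held none of the 5 motifs. The second is the 225 bases between the start sites of Psmb9, on the minus strand, and Tap1, the peptide transporter gene read in the other direction, with the CCAAT box on the opposite strand of Psmb9 in capitals.
Psmd8 (chr7:29180674-29180923, minus strand): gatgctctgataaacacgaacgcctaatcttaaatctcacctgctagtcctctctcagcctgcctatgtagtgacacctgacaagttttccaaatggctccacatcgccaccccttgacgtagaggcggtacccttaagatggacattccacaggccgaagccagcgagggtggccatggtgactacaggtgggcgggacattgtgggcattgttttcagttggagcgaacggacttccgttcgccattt
Psmb9 (chr17:34187331-34187555, minus strand): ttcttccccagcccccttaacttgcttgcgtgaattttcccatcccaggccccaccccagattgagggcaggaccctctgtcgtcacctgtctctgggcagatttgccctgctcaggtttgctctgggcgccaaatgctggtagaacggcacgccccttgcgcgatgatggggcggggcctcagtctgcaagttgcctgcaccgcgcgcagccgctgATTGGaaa

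The values are reads on the exons of a gene, scaled by the authors so that each library has the same total, and they are called levels below. Depth, recovered from the steps between low values, ran from 5067432 to 14500278 reads (median 10832557). All 12 fibroblast markers were present, with a summed level of 414900 to 587900 in starved cells. The sum was 212800 to 228500 at 24 to 27 h. By the test described below, 9 of the 12 were called lower in that window and 3 higher, where 38.6% and 24.8% of all genes were. The Cycle 1 library at 24.5 h stood apart, with a median difference of 0.41 on the log2 scale from its neighbours in time, and it was in no test. The Cycle 1 libraries at 24 h (0.26), 5.5 h (0.23), 25 h (0.23) and 26 h (0.23) followed, and the one at 26 h holds the highest 26S median given below. The labels do not say whether the Cycles came from separate embryos or cultures, so a p-value measures only the spread between these libraries. Both the number of cells of a type and the RNA per cell enter a level, and in bulk RNA they cannot be told apart.

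Per kilobase of exon, the mean level over all libraries ranged among the 31 subunits from 17.6 for Psma3 to 2008 for Psmd8. The length was that of all exons of a gene in the GENCODE annotation, such as 2736 bases for Psmb8 and 922 for Psmb5. It may differ from the exons that the authors counted, so comparisons between genes are uncertain. The low end held genes whose coding sequence has near-identical copies elsewhere in the genome. Psmc1 (904.3) and Psmd2 (673.1), which also have a copy, were not at the low end. Reads can be split between such copies, but their part in these levels was not tested. A copy of at least 95% identity over at least 50% of the coding sequence was found in NCBIM37 for 8 of the 31 subunits (Psma3, Psma4, Psma5, Psmb3, Psmb5, Psmc1, Psmd2 and Psmd11) and for the activator Psme2, and the values of these 9 genes are uncertain. Counting took reads of both strands, so the members that share annotated exon bases with a neighbour can carry some of its reads. Such reads were not measured. The largest shares were 21.2% of Psmc3ip with Mlx, 11.8% of Psmb5 with Mir686, 8.25% of Psmc3 with Slc39a13, 8.07% of Psmd1 with Armc9, 6.83% of Psmb8 with Gm20496 and 5.48% of Psmb9 with Tap1. Averaged over all libraries, most of them taken after serum, the immunoproteasome genes lay below their constitutive counterparts, with mean levels per kilobase of 56.8 for Psmb8, 4.99 for Psmb9 and 101 for Psmb10, against 226.8 for Psmb5, 739.9 for Psmb6 and 1018 for Psmb7. In starved cells of Cycle 1 Psmb8 was above Psmb5, at 230.7 and 187 against 153.2 and 129.5 per kilobase, and in Cycle 2 it was below, at 103.9 and 100.9 against 154.2 and 163.6. Psmb5 is one of the genes with a copy.

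Most subunits of the 26S proteasome rose after serum, and none was called lower in any window of hours. Each window of hours that both Cycles sampled was compared with the 4 starved libraries by limma on log2(value + 1), with Cycle as a block, and a gene was called when the p-value adjusted by the Benjamini-Hochberg method over all 15895 genes was under 0.05. At 1 to 3 h 2 of 31 subunits were called higher, Psmd8 and Psmd11, against 14.1% of all genes called higher and 39.2% called lower. At 4 to 6 h the number was 16 of 31, with 21.0% of all genes higher and 40.4% lower. In that window Psmb1 measured -0.27 on the log2 scale in Cycle 1 and 0.10 in Cycle 2, and Psmc6 -0.03 and -0.11, neither called. The next window, 7 to 10 h, had 28 of 31, with 22.9% of all genes higher and 36.7% lower, and the subunits not called were Psma4 (log2 change 0.11), Psmb1 (0.03) and Psmc6 (0.13). From 11 h the picture stayed nearly complete. At 11 to 14 h 30 of 31 were called higher (24.8% of all genes higher, 34.9% lower), as at 15 to 18 h (25.2% higher, 35.1% lower) and at 19 to 23 h (26.6% higher, 37.8% lower). At 24 to 27 h 29 of 31 were called higher (24.8% of all genes higher, 38.6% lower), with Psma3 (0.23) and Psmb1 (0.15) not called.

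The median log2 change of the 31 subunits was 0.10, 0.29, 0.48, 0.64, 0.62, 0.65 and 0.63 in the 7 windows in order of time. Over all genes the median was -0.26, -0.26, -0.17, -0.13, -0.12, -0.14 and -0.17. The 2 early windows depended on the scaling and on single libraries. With median-ratio size factors 25 subunits were called at 1 to 3 h and 27 at 4 to 6 h. Of the 15895 genes 3913 and 4452 were called higher with these factors, and 2249 and 3335 as deposited. Without the starved 0 h library of Cycle 1 the count at 4 to 6 h dropped to 5 and the one at 1 to 3 h to 1, while the lowest count at 7 to 10 h was 22. Without the Cycle 1 library taken 1 h before serum, or without the 5 h library of Cycle 2, the count at 4 to 6 h was 9. At 1 to 3 h it was 6 without the 0 h library of Cycle 2, and 4 without either the Cycle 2 library before serum or the Cycle 1 library at 1.5 h. Leaving out the 8 subunits with a copy, 21 of 23 were called at 7 to 10 h, with a median of 0.48.

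**Figure D1:**
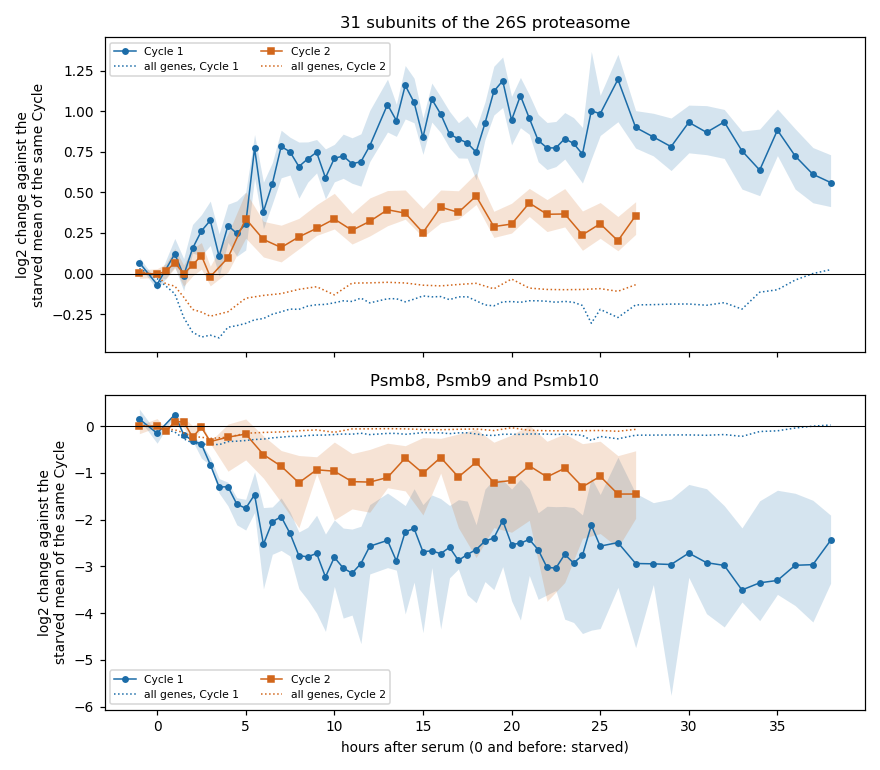
Median log2 change of the 31 subunits of the 26S proteasome (upper panel, band: the quartiles of the subunits) and of Psmb8, Psmb9 and Psmb10 (lower panel, band: lowest to highest gene) in every library, against the starved mean of the same Cycle, by hours after serum; dotted lines are the medians of all genes. The 26S median reached 1.20 at 26 h in Cycle 1 and 0.48 at 18 h in Cycle 2, while the immunoproteasome genes moved the other way in both Cycles.

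Library by library, the 26S median followed a course of hours. It was 0.12 in Cycle 1 and 0.07 in Cycle 2 at 1 h, 0.78 and 0.16 at 7 h, and 1.16 and 0.37 at 14 h. In Cycle 1 the highest medians were 1.20 at 26 h and 1.19 at 19.5 h, and single libraries departed from their neighbours, such as 0.77 at 5.5 h between 0.31 at 5 h and 0.38 at 6 h. In Cycle 2 the median never passed 0.48, its value at 18 h. Between 7 and 10 h 29 subunits in Cycle 1 and 25 in Cycle 2 were above both starved libraries of their Cycle in all 4 libraries of the window. The same held for 26.2% and 23.3% of all genes. Among the hours that both Cycles sampled, each subunit had its highest library at 11 h or later in Cycle 1. In Cycle 2 28 of 31 did. Most of these hours lie at 11 h or later, and the share of all genes with so late a peak was not computed. At 0.5 h, sampled in Cycle 2 alone, the median was 0.01, with 14 subunits above and 8 below both starved libraries, as were 23.8% and 48.2% of all genes.

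In the core, 12 of the 14 ring subunits were called higher at 7 to 10 h and 13 at 11 to 14 h, with medians of 0.43 and 0.56. Of all genes 22.9% and 24.8% were called higher in these windows. Among the alpha subunits, Psma7 had the largest change at 7 to 10 h. Its starved levels were 1190 and 1107 in Cycle 1 and 1335 and 1323 in Cycle 2. In the 7 to 10 h window its 4 libraries ran from 1755 to 2174 in Cycle 1 and from 1680 to 1973 in Cycle 2, above the starved libraries of both Cycles without overlap, and the fold change was 1.53 (log2 0.62, SE 0.13, adjusted p = 0.000179 by limma). Psma1 had a smaller change than the median of the alpha ring (0.42), with starved levels of 990.5 and 881.7 in Cycle 1 and 1191 and 1145 in Cycle 2. Psma1 at 7 to 10 h spanned 1297 to 1437 in Cycle 1 but 1141 to 1383 in Cycle 2, where it overlapped the starved libraries, and its fold change was 1.27 (log2 0.34, adjusted p = 0.0121 by limma).

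Of the beta subunits, Psmb3, a structural subunit, and Psmb5, which carries the chymotrypsin-like activity, had the largest changes. Psmb3 was at 126.3 and 107.6 in starved cells of Cycle 1 and at 124 and 148.3 in Cycle 2, and its medians at 7 to 10 h were 199.4 and 193.1. All 8 libraries of that window, from 172.3 to 216.7, lay above all 4 starved libraries (fold 1.55, log2 0.63, SE 0.14, adjusted p = 0.000238 by limma). Psmb5 went from 119.4 to 150.8 over the 4 starved libraries to 171.4 to 241.5 at 7 to 10 h, again with no overlap (fold 1.46, log2 0.55, adjusted p = 0.00028 by limma). Both have a copy in the genome, and their levels are uncertain for that reason. The caspase-like subunit Psmb6 changed by 0.33 and the trypsin-like subunit Psmb7 by 0.31 on the log2 scale at 7 to 10 h. The call of Psmb6 did not hold without the Cycle block. Apart from Psma4 (0.11, not called), the ring subunits not yet given changed at 7 to 10 h by 0.32 (Psma3) to 0.46 (Psmb2), all called. Psmb1 stayed nearest to its starved level. It measured 1554 and 1332 in Cycle 1 and 1296 and 1337 in Cycle 2 in starved cells and 1280 to 1605 at 7 to 10 h, and it was called at 19 to 23 h alone (log2 0.28).

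All 17 listed subunits of the regulatory cap were called higher in each window from 11 h on. At 7 to 10 h 16 were. Of all genes 24.8% to 26.6% were called higher in the later windows and 22.9% at 7 to 10 h. Cap subunits with other symbols, such as Adrm1, are not in this count. The lid had the larger values. The median log2 change at 7 to 10 h was 0.68 over its 8 listed subunits and 0.49 over the 6 base ATPases. It was 0.48 over the 3 other listed base subunits and 0.43 over the core. These medians are descriptions, and the difference between the groups was not tested.

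Psmd8, a lid subunit near the junction with the base (chr7:29959207-29965692, minus strand, NCBIM37), had the highest fold change of the 31 in each window. Its starved levels were 1356 and 1275 in Cycle 1 and 1821 and 1793 in Cycle 2. Its levels at 1 to 3 h were 1585 to 2289 in Cycle 1 and 2057 to 2569 in Cycle 2, already above the starved libraries of the same Cycle (log2 0.46, SE 0.09, adjusted p = 3.17e-05 by limma). By 7 to 10 h they were 2995 to 3207 and 2985 to 3379, a 2.02-fold rise (log2 1.01, SE 0.09, adjusted p = 2.35e-11). At 24 to 27 h the rise was 2.17-fold (log2 1.12, adjusted p = 2.38e-12). Its medians at 7 to 10 h were close in the Cycles, 3048 and 3129.

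Psmd3 and Psmd7, scaffold subunits of the lid, changed by 0.75 and 0.71 on the log2 scale at 7 to 10 h and by 1.01 and 0.91 at 24 to 27 h. In Cycle 1 Psmd3 went from 1204 and 1107 in starved cells to between 2700 and 3802 at 24 to 27 h. In Cycle 2 it went from 1383 and 1448 to between 2075 and 2177. The groups did not overlap in either Cycle, but Cycle 1 passed from below Cycle 2 to above it. Psmd11, a lid subunit that helps to hold lid and base together, was the other early riser (log2 0.31 at 1 to 3 h, adjusted p = 0.00566 by limma), with starved levels of 272.6 to 388.2 and levels of 504.6 to 584.8 at 7 to 10 h. Psmd14, the deubiquitinase, changed by 0.66 at 7 to 10 h (adjusted p = 9.37e-05 by limma).

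Among the base ATPases Psmc4 had the largest change (chr7:28826726-28835120, minus strand, NCBIM37). Its starved levels were 919.8 and 910 in Cycle 1 and 1269 and 1242 in Cycle 2. Psmc4 levels at 7 to 10 h were 1772 to 2117 in Cycle 1 and 1600 to 1831 in Cycle 2, a 1.71-fold rise with no overlap (log2 0.77, SE 0.14, adjusted p = 2.62e-05 by limma), and at 19 to 23 h the fold change was 2.01. Psmc1, Psmc2, Psmc3 and Psmc5 changed by 0.57, 0.51, 0.44 and 0.48 at 7 to 10 h, all called. Psmc6 had the smallest change of the 6, 0.13 at 7 to 10 h (not called) and 0.40 at 24 to 27 h (called). Psmd2 and Psmd1, the large scaffolds that receive substrates, changed by 0.42 and 0.48 at 7 to 10 h, and the ubiquitin receptor Psmd4 by 0.48, all called.

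**Figure D2:**
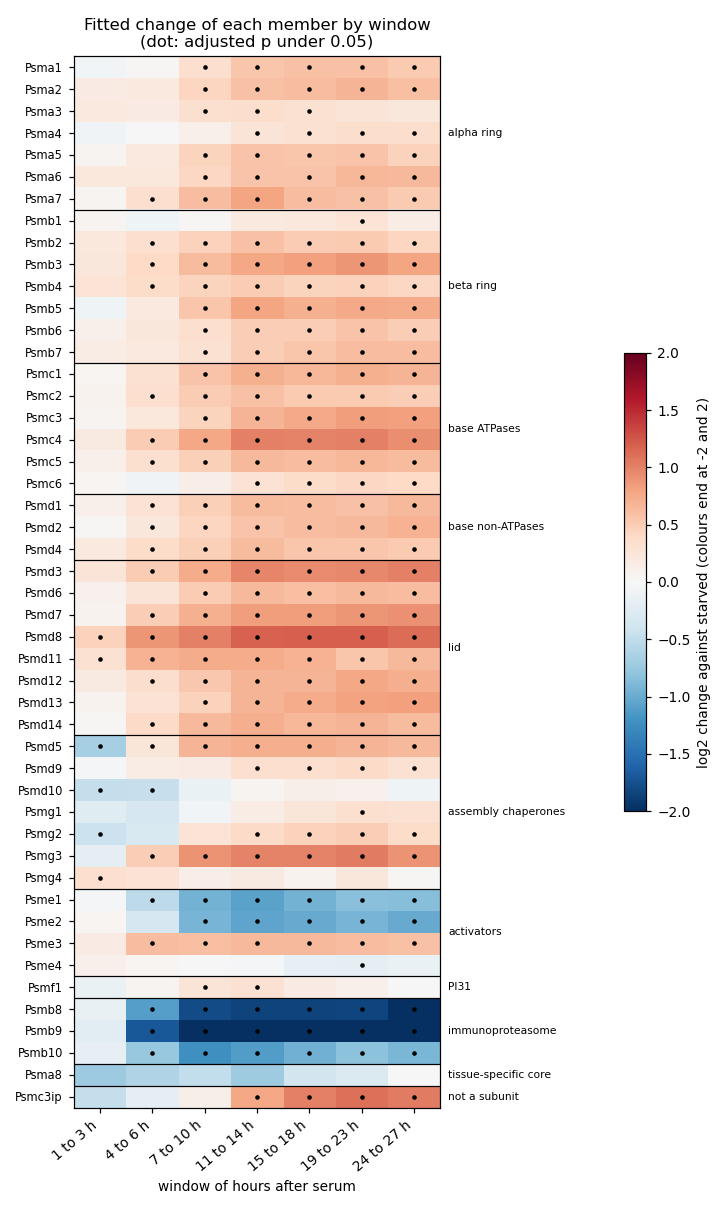
Fitted log2 change against starved of each of the 48 members (rows, grouped by role) in the 7 windows of hours (columns); colours end at -2 and 2, and a dot marks an adjusted p under 0.05 by limma. The rows of the rings, base and lid fill with dots from 7 to 10 h on, all on the side of a rise, while Psmb8, Psmb9, Psmb10, Psme1 and Psme2 are on the side of a fall.

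Over the 29 shared hours taken one by one, an F test of any difference from starved called 26 of the 31 subunits and 40 of the 48 members, where 79.3% of all genes were called. The members not called were Psma3, Psma5, Psma8, Psmb1, Psmb4, Psmb6, Psmd9 and Psmg4. Psmb4 was nevertheless called in the 6 windows from 4 to 6 h on, which average several hours. The share of members called was close to that of all genes.

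The calls against starved lasted to the end of the shared hours. Between 7 to 10 h and 24 to 27 h, 8 of 31 subunits were called higher and 0 lower, where 23.0% of all genes were higher and 24.2% lower. They were Psma4, Psma6, Psmb7, Psmc3, Psmc6, Psmd2, Psmd3 and Psmd13, and the largest of these differences was 0.38 on the log2 scale for Psmc3. The share of subunits called higher was near that of all genes. The count was 5 without the 26 h library of Cycle 1 or the 7 h library of Cycle 2, and 14 without the 26 h library of Cycle 2. The median over the 31 subunits was 0.16, from 0.24 in Cycle 1 and 0.04 in Cycle 2.

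Hours after 27 h were sampled in Cycle 1 alone and have no replicate. At 34 to 38 h the 31 subunits had a median log2 difference of -0.27 from 25 to 29 h, within -0.48 to 0.14, while the median of all genes was 0.09. The 5 later libraries lay below all 5 earlier ones for 8 of 31 subunits and above for 0, where 7.95% of all genes lay below and 15.7% above. The 8 were Psma2, Psma6, Psmb5, Psmc4, Psmd12, Psmd14, Psmd3 and Psmd7. Psmc4 went from between 2093 and 2883 to between 1562 and 1951, still above its starved levels. At 38 h the 26S median was 0.56. In all 5 libraries at 34 to 38 h 29 of 31 subunits were above both starved libraries of Cycle 1, as were 26.8% of all genes.

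Averaged over the shared hours, each of the 31 subunits was above starved in both Cycles, but the size differed. By window, 20 of 31 were above starved in both Cycles at 1 to 3 h and 27 at 4 to 6 h. The count was 29 at 7 to 10 h and all 31 from 11 h on. The share of all genes above starved in both Cycles was not computed. A term for the difference in change between the Cycles, added after seeing the data, was smaller in Cycle 2 for 7 of 31 subunits and larger for 0, where 6.25% of all genes were called smaller and 7.35% larger. The 7 were Psmb2 (difference in log2 change -0.52), Psmc4 (-0.63), Psmd1 (-0.50), Psmd2 (-0.41), Psmd6 (-0.52), Psmd12 (-0.51) and Psmd14 (-0.62). Over the same hours the median change of the 31 subunits was 0.70 in Cycle 1 and 0.25 in Cycle 2. The starved cells differed more than the stimulated cells did. As Cycle 2 minus Cycle 1, the median log2 difference was 0.31 in starved cells and -0.11 after serum. Psmd14 shows it, with starved levels of 825.1 and 767.7 in Cycle 1 against 1196 and 1183 in Cycle 2, and medians at 24 to 27 h of 1569 and 1429. Over all genes the median difference in change between the Cycles was 0.10.

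**Figure D3:**
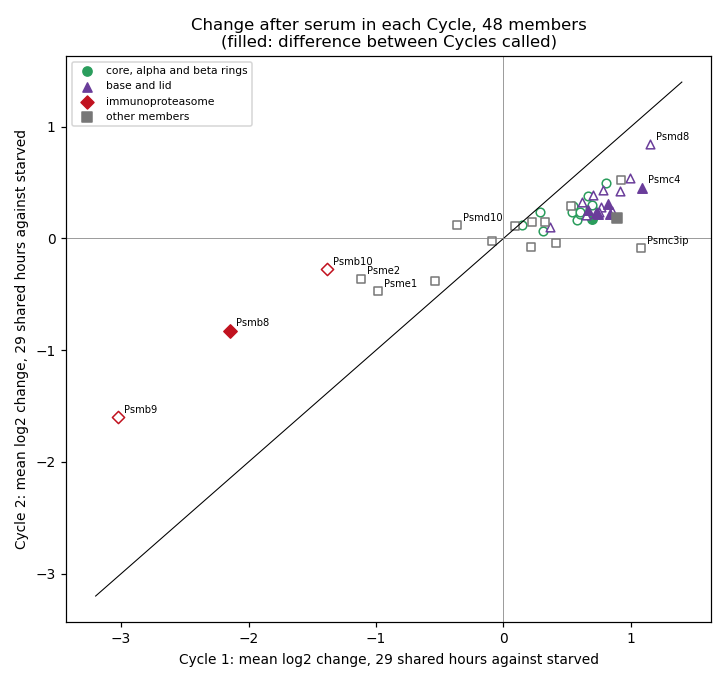
Mean log2 change over the 29 shared hours against starved in Cycle 1 (horizontal axis) and Cycle 2 (vertical axis) for the 48 members, with the line of equal change; filled points have a difference between the Cycles called by limma. The core, base and lid points lie below the line on the side of a rise, and Psmb8, Psmb9 and Psmb10 lie above it on the side of a fall, so both sets moved less in Cycle 2.

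The assembly chaperones did not move as one group. At 1 to 3 h Psmg4, a partner in alpha ring assembly, was called higher (log2 0.33, adjusted p = 0.0317 by limma, a call lost without the Cycle block) and Psmg2, Psmd5 and Psmd10 lower, and the calls of Psmg2 (-0.42) and Psmd10 (-0.48) did not hold with median-ratio size factors (-0.17 and -0.23). Of all genes 14.1% were called higher and 39.2% lower at 1 to 3 h. Psmd5 and Psmg3 at 7 to 10 h were called higher and 5 were not called, where 22.9% of all genes were higher and 36.7% lower. The shares called higher, and the share called lower at 1 to 3 h, were near those of all genes.

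Psmd5, a chaperone that binds an ATPase pair of the base (chr2:34707608-34726459, minus strand, NCBIM37), fell before it rose, and did so in both Cycles. Its starved levels were 584.7 and 536.1 in Cycle 1 and 650.6 and 639.5 in Cycle 2. At 1, 1.5, 2, 2.5 and 3 h its levels were 478.6, 308.2, 218.3, 317.6 and 502.5 in Cycle 1. In Cycle 2 they were 558.9, 409.6, 321.5, 367.5 and 420.3. Each of these 10 libraries lay below the starved libraries of its Cycle, and the lowest point was at 2 h in both Cycles (log2 -1.18, SE 0.13, adjusted p = 1.21e-08 by limma). By 7 to 10 h the range was 976.8 to 1019 in Cycle 1 and 861 to 982.3 in Cycle 2, a 1.60-fold rise over starved (log2 0.67, SE 0.09, adjusted p = 3.17e-07).

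Psmg3, which works with Psmg4, had the strongest rise among the chaperones. It was at 121.7 and 121.3 in starved cells of Cycle 1 and at 117.3 and 131 in Cycle 2. Its levels at 7 to 10 h were 226.7 to 328.8 and 163.8 to 238.7, above the starved libraries in all 8 (fold 1.87, log2 0.90, SE 0.17, adjusted p = 2.96e-05 by limma). Psmg1 was called between 7 to 10 h and 24 to 27 h (log2 0.37), with a Cycle 1 median that went from 249.7 to 360.3 and a Cycle 2 median that went from 204.2 to 248.4. Psmd9 changed by 0.31 at 24 to 27 h, a call that did not hold without the Cycle block, and Psmd10 was called in neither of these late windows.

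The activators, caps that open the core without ATP, parted by type. Psme1 and Psme2 encode the interferon-inducible PA28 alpha and beta subunits. Psme1 was at 607.2 and 537.9 in starved cells of Cycle 1 and at 402.5 and 365.1 in Cycle 2. It still spanned 457.1 to 678.7 and 327.2 to 449.7 at 1 to 3 h, and at 7 to 10 h it was at 198.9 to 287.3 and 237.4 to 262.9, below the starved libraries in all 8 (fold 0.518, log2 -0.95, SE 0.16, adjusted p = 8.95e-06 by limma). Psme2 went from between 64.69 and 115 in the 4 starved libraries to between 31.72 and 52.67 at 7 to 10 h, without overlap (log2 -0.93, adjusted p = 0.000585 by limma), but it has a copy of 99.3% identity and is uncertain.

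Psme3, the nuclear PA28 gamma, rose instead. Its starved levels were 1108 and 1028 in Cycle 1 and 1646 and 1495 in Cycle 2, and at 7 to 10 h it was at 2026 to 2052 and 1776 to 2029 (fold 1.51, log2 0.60, SE 0.10, adjusted p = 6.73e-06 by limma). The difference between the Cycles was called for Psme3 (-0.71, adjusted p = 0.000219), and again the starved cells differed more than the stimulated ones. Psme4, the PA200 cap, had a log2 change of 0.01 at 7 to 10 h (adjusted p = 0.949 by limma) and was called lower at 19 to 23 h alone (-0.20, adjusted p = 0.0178). It was called higher at 1 to 3 h under median-ratio scaling, edgeR and DESeq2. In Cycle 1 all 5 libraries at 34 to 38 h, from 1478 to 1919, were above the 5 at 25 to 29 h, from 959.4 to 1222. Psmf1, which binds the core and is known as PI31, was called higher at 7 to 10 h (0.25, adjusted p = 0.00432) and at 11 to 14 h (0.30), and was lower at 24 to 27 h than at 7 to 10 h (-0.24, adjusted p = 0.00142).

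**Figure D4:**
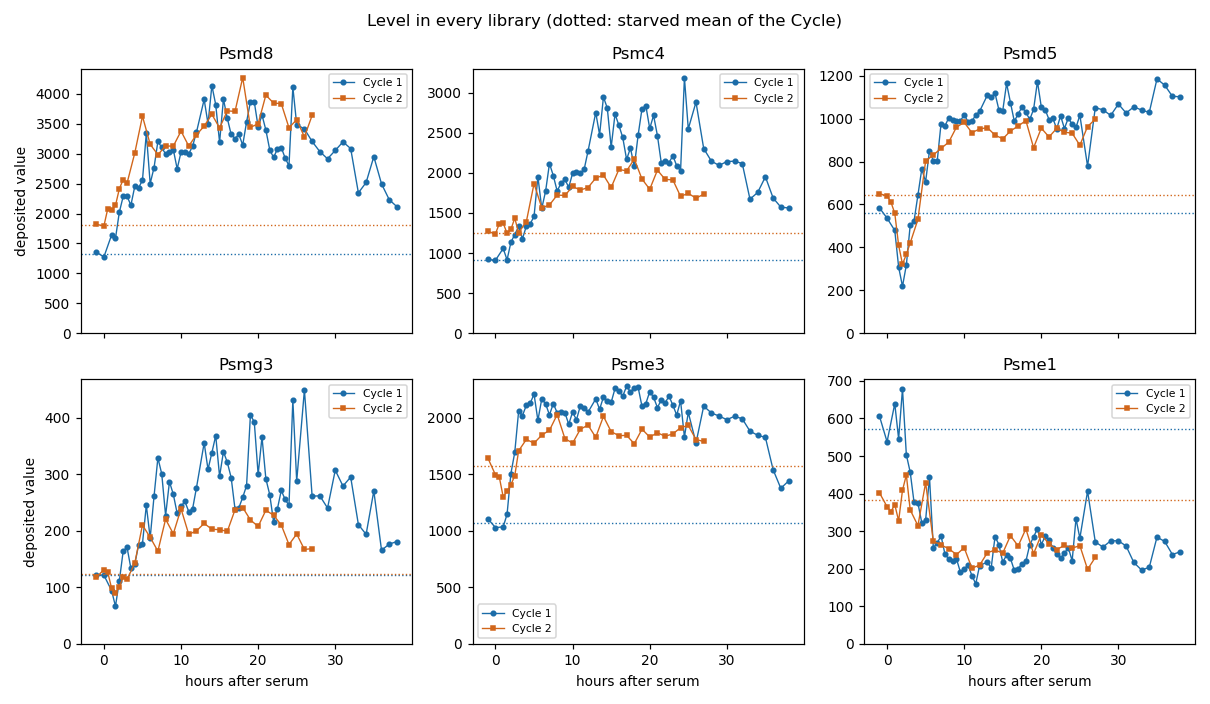
Deposited value of Psmd8, Psmc4, Psmd5, Psmg3, Psme3 and Psme1 in every library by hours after serum, in Cycle 1 (circles) and Cycle 2 (squares); dotted lines are the starved means of the Cycles and each vertical axis starts at 0. Psmd5 reaches its lowest level, 218.3 and 321.5, at 2 h in both Cycles, and Psme1 is below its starved level from 7 h on while Psmd8, Psmc4, Psmg3 and Psme3 are above theirs.

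The immunoproteasome genes fell while their constitutive counterparts rose. At 1 to 3 h 0 of the 3 were called, and the log2 changes were -0.15 for Psmb8, -0.22 for Psmb9 and -0.16 for Psmb10. Under the 4 other scalings and count tests these early values turned positive, and none was called. From 4 to 6 h on 3 of 3 were called lower in each window, where 34.9% to 40.4% of all genes were. Psmb10 moved little in some windows of Cycle 2. Its log2 change was -1.5 in Cycle 1 and -0.0033 in Cycle 2 at 4 to 6 h. At 15 to 18 h it was -1.73 and -0.18, and at 19 to 23 h -1.45 and -0.2. At 4 to 6 h the call of Psmb10 (-0.75) was lost with median-ratio size factors, with quantile normalization, with the 0 h libraries alone as starved, with edgeR and with DESeq2.

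Psmb9 (chr17:34318932-34324697, minus strand, NCBIM37) had the largest fall of the 48 members. Its starved levels were 136.8 and 82.06 in Cycle 1 and 33.39 and 42.03 in Cycle 2. By 7 to 10 h it was at 5.693 to 15.96 in Cycle 1 and 7.532 to 19.14 in Cycle 2, below the starved libraries in all 8 (fold 0.172, log2 -2.54, SE 0.42, adjusted p = 4.24e-06 by limma). At 24 to 27 h the fold change was 0.103 (log2 -3.28, adjusted p = 4.72e-08), at levels of 3.013 to 8.808.

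Psmb8 lies nearby on the same chromosome (chr17:34334666-34338399, plus strand). It was at 631.3 and 511.5 in starved cells of Cycle 1 and at 284.3 and 276.1 in Cycle 2. By 7 to 10 h it was at 80.46 to 147.9 and 120.5 to 154.3, all 8 below starved (fold 0.290, log2 -1.78, SE 0.27, adjusted p = 1.28e-06 by limma). Psmb10 (chr8:108459628-108462292, minus strand) was at 377.3 and 308.2 in starved cells of Cycle 1 and at 134.5 and 134.3 in Cycle 2. Its levels at 7 to 10 h were 70.23 to 117 and 85 to 106, again below starved in all 8 (fold 0.426, log2 -1.23, SE 0.26, adjusted p = 0.00011 by limma).

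Set against the subunit whose place it takes, each immunoproteasome gene lost ground in every window from 4 h on. At 7 to 10 h the change of Psmb8 minus that of Psmb5 was -3.25 on the log2 scale in Cycle 1 and -1.41 in Cycle 2. It was -3.83 and -1.91 for Psmb9 minus Psmb6, and -2.44 and -0.64 for Psmb10 minus Psmb7. At 24 to 27 h the differences were -3.68 and -1.81, -5.06 and -2.48, and -2.28 and -0.77 in the same order. Each of the 8 libraries of the 7 to 10 h window gave a difference below 0 for each pair. The size again differed between the Cycles, with a called difference for Psmb8 (1.32, adjusted p = 0.0286 by limma), and adjusted p-values of 0.0553 for Psmb10 and 0.15 for Psmb9. In starved cells the 3 genes were lower in Cycle 2, with a median log2 difference of -1.34 as Cycle 2 minus Cycle 1. After serum the median difference was -0.05, with 0.30 for Psmb8, -0.05 for Psmb9 and -0.23 for Psmb10.

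**Figure D5:**
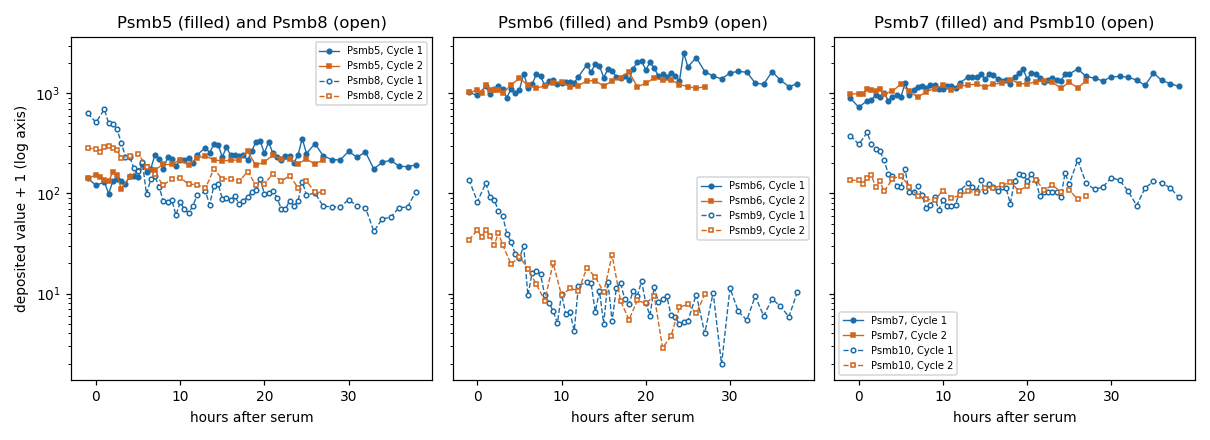
Deposited value plus 1, on a log axis, of each immunoproteasome gene (open symbols) and of the constitutive gene whose place it takes (filled symbols) in every library by hours after serum, Cycle 1 as circles and Cycle 2 as squares. The open symbols drop between 2 and 8 h in both Cycles, from a higher starved level in Cycle 1, while the filled symbols drift upward.

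Leukocytes express these genes, and 8 of 9 leukocyte markers were in the table, of which Aif1 averaged under 10. Their summed level was 1134 to 1221 in starved cells of Cycle 1 and 3425 to 3511 in Cycle 2, the reverse of the order of the immunoproteasome genes in starved cells. Lyz2 made up most of this sum, and the other 7 markers summed to 311.9 to 349.7 in Cycle 1 and 535.6 to 637.4 in Cycle 2, the same order. At 7 to 10 h it was 1037 to 1369 and 2947 to 3503, with 1 of 8 markers called lower and 1 higher, where 36.7% of all genes were lower and 22.9% higher. At 24 to 27 h it was 607.3 to 744 and 2106 to 2376, with 6 of 8 called lower against 38.6% of all genes. The Cycle 2 library at 0.5 h had a sum of 747.7. Endothelial markers summed to 213.4 to 281.7 over the starved libraries and 56.33 to 115.1 at 24 to 27 h, with 2 of 5 called lower at 7 to 10 h and 4 of 5 at 24 to 27 h. Epithelial markers summed to 300 to 315.6 in starved cells of Cycle 1 and 109.7 to 113.7 in Cycle 2, and to 106.5 to 250 and 76.09 to 97.87 at 24 to 27 h, where 4 of 5 were called lower. The part of these cell types in the fall of the immunoproteasome genes was not tested.

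Genes that work with the immunoproteasome in antigen presentation were mostly called lower from 4 h on. Of 15 such genes 6 were called lower at 1 to 3 h, a share near the 39.2% of all genes, and 10, 12, 13, 15, 15 and 15 in the later windows, where 40.4%, 36.7%, 34.9%, 35.1%, 37.8% and 38.6% of all genes were. At 7 to 10 h the median log2 change was -1.12, with -1.97 for the peptide transporter Tap1, -1.79 for its partner Tap2, -1.12 for the peptide trimmer Erap1 and -0.47 for B2m, the light chain of class I molecules. The class I heavy chain genes H2-K1 (-0.38) and H2-D1 (-0.03) were not called in that window. The interferon response factor Irf1 (-1.98) was lower too. It was called already at 1 to 3 h (-1.13, adjusted p = 1.46e-05 by limma), when no immunoproteasome gene was.

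Other genes of the pathway moved as the 26S subunits did in part. Of 19 proteasome-associated genes of the table, 12 were called higher and 1 lower at 7 to 10 h (all genes 22.9% and 36.7%), and 13 and 1 at 24 to 27 h (all genes 24.8% and 38.6%). Adrm1, a ubiquitin receptor of the cap, changed by 0.85 at 1 to 3 h and by 1.07 at 7 to 10 h (adjusted p = 3.45e-09 by limma). Pomp, the maturation factor of the core, changed by 0.48, and Usp14, a deubiquitinase that docks on the base, by 0.39 at 7 to 10 h and by 0.84 at 24 to 27 h. AI314180, the mouse entry for Ecm29, was the gene called lower at 7 to 10 h (-0.37).

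Of 15 regulators 6 were called higher and 4 lower at 7 to 10 h, where 22.9% and 36.7% of all genes were. Nfe2l1, the factor named above, was called lower in each of the 4 windows at 1 to 3, 4 to 6, 7 to 10 and 24 to 27 h, with log2 changes of -0.36, -0.46, -0.49 and -0.55. Over all genes the median was -0.26, -0.26, -0.17 and -0.17 in these windows. Ngly1, which deglycosylates its protein, was lower (-0.54), and Ddi2, which cleaves it, was lower at 1 to 3 h (-0.47) and higher at 4 to 6 h (0.60). Nfe2l2 was higher at 1 to 3 h (0.85) and measured 0.10 at 7 to 10 h, not called. Myc was higher at 1 to 3 h (2.05) and 7 to 10 h (1.27). The small Maf partners of these factors, Mafg (0.66), Mafk (0.45) and Maff (1.70), were higher at 7 to 10 h. Uba1, the main ubiquitin-activating enzyme, was higher (0.35) and the ubiquitin gene Ubb lower (-0.28) at 7 to 10 h.

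Psma8, the testis form of Psma7, had a mean level of 2.49 over all libraries, with several libraries at 0, and was called in no window. Psmc3ip, the gene that is no subunit, was at 55.61 and 50.15 in starved cells of Cycle 1 and at 116.4 and 121.1 in Cycle 2. At 24 to 27 h it was at 167.7 to 229.1 and 132.2 to 152.2 (log2 1.04, SE 0.28, adjusted p = 0.0018 by limma). The change was 1.83 in Cycle 1 and 0.26 in Cycle 2.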

How the data were processed

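RNA of 96 libraries was sequenced as single reads of 50 bases. Per the labels and the study's methods, the authors aligned reads to mm9 with STAR after Casava, counted exon reads with HOMER, and brought all libraries to a common total, so the deposited unit is a normalized signal. Versions are not given in the sources used here. Columns were matched to libraries by name, and 1 column that matches no library was not used. Between 94.23% and 96.17% of low values were whole multiples of 1 read (tolerance 0.1), which gave the depth. A separate check of the columns did not class 2 libraries as whole reads, the Cycle 1 library before serum and the Cycle 2 library at 18 h. These were left out of the count tests, although 95.69% and 95.11% of their low values were whole by the measure above. Depth limits the precision of low genes such as Psmb9, and recovered reads carry counting error only.

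Members and lists were chosen with earlier results of these data known, and every member is named. Libraries were grouped by Cycle and hour from their labels. The test was limma (3.58.1, under R 4.3.3), run with trend and robust off on log2(value + 1) of 62 libraries: 4 starved and 29 shared hours in both Cycles, with hour as a factor and Cycle as a block. The study states that its 2 series may not have the same starting point, and it aligns them by an offset for each gene. No such offset was applied here. Fold changes are on the log2(value + 1) scale. Windows of hours were contrasted with starved, and p-values were adjusted by Benjamini-Hochberg over 15895 genes. Deviations of the Cycles from their mean correlated between hours with a median of 0.475 over 406 pairs of hours (lowest -0.181, 90.6% over 0.1), and the Cycle number of the labels marks a shared time course. Alternatives were other pseudocounts, scalings, filters and baselines, no block, each library left out, and edgeR 4.0.16 and DESeq2 1.42.0 on whole reads. Copies of coding sequences were sought in NCBIM37 with minimap2 2.31-r1302. The script was tested on simulated data. Times sampled in 1 Cycle have values only. Some genes of the pathway lists are not reported here.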

Additional observations from a re-analysis of the deposited data

Results flagged for a closer look

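In the 4 starved libraries, the highest or lowest sample stood away from the others for 2 of the 48 members. For Psmb1 the Cycle 1 library before serum was at 1554 and the others at 1296 to 1337, and the gap was 0.844 of the whole range. For Psmg1 the Cycle 1 library at 0 h was at 213.4 and the others at 239 to 242.3, a gap of 0.885. For 4 values that vary alike, chance alone flags about 1 in 20 groups. Here 2 values come from each Cycle, and the Cycles differed in starved level for many members, so that rate need not hold.

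The change after serum differed between the Cycles, by limma's test of the difference with a term added after seeing the data, for 9 members. As Cycle 2 minus Cycle 1 on the log2 scale the differences were -0.52 for Psmb2, -0.63 for Psmc4, -0.50 for Psmd1, -0.41 for Psmd2, -0.52 for Psmd6, -0.51 for Psmd12, -0.62 for Psmd14, -0.71 for Psme3 and 1.32 for Psmb8. For Psmb8 the fall was the smaller one in Cycle 2. The Cycle and the cultures behind it cannot be told apart.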

How the results depend on the processing

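Counts of 26S subunits called higher from 7 h on stayed within 1.5 times of the values above under every alternative run, and the count called lower was 0 throughout. The early windows moved. At 1 to 3 h the count of 2 became 25 with median-ratio size factors (median log2 change 0.357), 6 with quantile normalization, 15 with edgeR (0.235) and 16 with DESeq2 (0.270). Of the 15895 genes 2249 were called higher there as deposited, and 3913, 3437, 3157 and 3381 under these alternatives in order. At 4 to 6 h the count of 16 became 27 with median-ratio size factors (0.483), 25 with edgeR and 25 with DESeq2 (0.409). The genes called higher in that window were 3335 as deposited, 4452 with median-ratio factors, 3959 with edgeR and 4060 with DESeq2. These scalings shifted the median of all genes by 0.24, 0.20, 0.21 and 0.25 at 1 to 3 h, and relative to it the 26S median was 0.36 as deposited, 0.38 with median-ratio factors, 0.18 with quantile normalization, 0.28 with edgeR and 0.28 with DESeq2. Of all genes called at 1 to 3 h 26.5% were higher as deposited, and 50.2%, 45.1%, 44.3% and 49.2% under those 4 alternatives. At 7 to 10 h the shares were 38.5%, 47.6%, 51.7%, 45.5% and 47.7%. Leaving out 1 library gave 1 to 6 subunits at 1 to 3 h, 5 to 19 at 4 to 6 h, 22 to 28 at 7 to 10 h, and 5 to 14 between 7 to 10 h and 24 to 27 h. The cause was not tested.

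With no block 2919 of all genes were called higher at 4 to 6 h and 3249 at 7 to 10 h. Without the replicate block, 13 subunits were called at 4 to 6 h and 27 at 7 to 10 h. The calls lost without it were Psmg4 at 1 to 3 h, Psma7, Psmc5, Psmd2 and Psmg3 at 4 to 6 h, Psmb6 at 7 to 10 h and Psmd9 at 24 to 27 h, among the windows 1 to 3, 4 to 6, 7 to 10 and 24 to 27 h. Psmb5 at 1 to 3 h turned from -0.08 to 0.311 with quantile normalization (adjusted p = 0.0253 by limma). With Cycle 1 alone the 26S median at 7 to 10 h was 0.724 and with Cycle 2 alone 0.264, values with no test. Depth limits Psma8 and late Psmb9, where 1 read is a large part of the level.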
